A study of Mus musculus with 26 samples.

Results

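Germ cells at embryonic day E16.5 of the mouse are oocytes in the prophase of their first meiosis. They were taken here as the E16.5 cells sorted as BVSC, positive for both germ cell reporters, in which transcripts of Anxa5, a gene of gonadal somatic cells, stayed below 100 CPM, counts scaled to a sum of 1000000 in each cell or pool. The rule kept 155 of 188 BVSC cells, of 280 E16.5 cells of all sort gates and of 1881 cells in the series. All mice carried the Blimp1-mVenus and Stella-ECFP transgenes, and Blimp1 and Stella are the proteins of Prdm1 and Dppa3. Cell names mark every animal as WT, and the labels name no mutant or drug group. The cells set beside them, chosen in the same way, numbered 275 at E14.5, 151 at E15.5, 137 at E17.5 and 95 at E18.5. Female gonads of several embryos were pooled at each stage, dissociated with trypsin and sorted. Single cells were then picked by mouth, and transcripts were counted by unique molecular identifiers (UMIs) at their 3′ ends. A UMI count is a count of molecules, so a level needs no division by gene length.

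In fetal ovaries germ cells leave the mitotic cycle, start meiosis under Stra8, a target of retinoic acid, and pair their chromosomes along the synaptonemal complex. Spo11 cuts the DNA, and recombination proteins repair the cuts, some of them as crossovers. The cells pass from leptotene through zygotene and pachytene to diplotene, where they arrest. Oocyte transcription factors such as Figla, Nobox, Lhx8 and Sohlh1 then prepare the primordial follicle.

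The Anxa5 level chose the cells and is therefore no result. The highest members had 76.3, 87.05 and 94.1 CPM, the lowest cells left out had 107, 118 and 137 CPM, and 77 members had no Anxa5 UMI. The limit took 22.9% of BVSC cells in library 20 and 12.0% in library 22, the 2 libraries of E16.5, against at most 8.96% in any other library. Members numbered 74 in library 20 and 81 in library 22. Depth ran from 15177 to 680546 UMIs per member around a median of 154307, with medians of 194158 in library 20 and 140823 in library 22, and the median number of detected genes was 7875. The 2 libraries shared 92 cell numbers but no cell with identical counts. Counts were summed per library into a pool, so E16.5 had 2 pools, as had E15.5, E17.5 and E18.5, and E14.5 had 4, of which libraries 4, 5 and 12 carry R1 in the cell names and library 14 carries R2. The labels do not say that libraries came from separate animals, so every p-value reflects only how libraries vary, and that variation may be technical.

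Germ cell markers were high in the members, and somatic ones were low but present. Ccnb3, Gc, Morn5 and Spo11 summed to 2482 and 2665 CPM in the E16.5 pools, against 58.3 CPM in E16.5 cells sorted as Negative and 1305 CPM in the BVSC cells left out. A UMI of Ccnb3 was seen in 100% of members and in 27.2% of Negative cells, of Gc in 98.7% and 33.7%, of Morn5 in 93.5% and 19.6%, and of Spo11 in 98.1% and 33.7%, at median depths of 154307 UMIs in members and 178384 in Negative cells. The 7 pregranulosa markers measured summed to 203 CPM in library 20 and 86.4 in library 22, against 2333 in Negative cells and 1590 in the cells left out. The 8 stromal markers gave 122 and 65.9 CPM, against 2452 in Negative cells, and the 4 early somatic markers 89.2 and 22.7 CPM, against 2104. These 4 were Wt1, Nr5a1, Lhx9 and Anxa5, and the low Anxa5 level was set by the rule that chose the members. The cells left out were picked by their high Anxa5, so their pregranulosa level is no independent result. Summed levels in library 20 and library 22 were 1.87 and 0 CPM for 2 epithelial markers, 19.5 and 14.4 for 5 endothelial ones, 12.7 and 5.97 for 8 immune ones and 125 and 33.8 for 5 erythroid ones. In each of these 7 lists library 20 was above library 22, and no marker was at 0 in both pools. The part of somatic RNA in the results below was not tested, and in summed counts fewer cells of a type and less RNA per cell cannot be told apart. Kitl, the pregranulosa ligand of Kit, reached 100 CPM or more in 11 members of library 20 and in 3 of library 22. No doublet caller was run.

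The DNA around the start sites is shown for 3 of the marker genes, Ccnb3, Gc and Morn5, and for Speer4a, the 1 gene that rose against E15.5, since all 4 rose against E14.5. Spo11 had no entry in the promoter table. Each window is RefSeq sequence of GRCm38.p6 with 250 bases before and 50 after the start, written 5′ to 3′ along the gene. Capitals mark the cores CAACNG and TAACNG of the element bound by MYB proteins and the site GTTGCC bound by RFX proteins, each searched on both strands, and the marked matches do not overlap each other. The windows lie at X:7041570-7041869 on the minus strand for Ccnb3, 5:89457849-89458148 on the minus strand for Gc, 2:36049223-36049522 on the plus strand for Morn5 and 5:26039456-26039755 on the minus strand for Speer4a.
Ccnb3: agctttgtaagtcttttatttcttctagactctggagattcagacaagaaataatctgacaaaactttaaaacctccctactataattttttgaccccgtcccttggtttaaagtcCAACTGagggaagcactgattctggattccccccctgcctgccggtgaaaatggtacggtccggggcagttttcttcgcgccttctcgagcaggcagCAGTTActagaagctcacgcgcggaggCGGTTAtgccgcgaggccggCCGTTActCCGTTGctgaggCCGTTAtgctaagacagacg
Gc: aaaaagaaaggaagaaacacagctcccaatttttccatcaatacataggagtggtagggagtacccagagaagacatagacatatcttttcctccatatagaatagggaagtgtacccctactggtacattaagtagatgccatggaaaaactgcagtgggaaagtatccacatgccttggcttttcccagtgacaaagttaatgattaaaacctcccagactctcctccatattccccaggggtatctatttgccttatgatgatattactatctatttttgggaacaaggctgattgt
Morn5: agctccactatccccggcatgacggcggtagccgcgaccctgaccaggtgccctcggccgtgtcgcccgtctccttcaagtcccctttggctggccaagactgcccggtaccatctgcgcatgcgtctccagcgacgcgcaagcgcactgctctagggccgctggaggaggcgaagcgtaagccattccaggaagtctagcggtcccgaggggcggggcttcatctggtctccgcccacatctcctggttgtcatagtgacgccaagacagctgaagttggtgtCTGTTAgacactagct
Speer4a: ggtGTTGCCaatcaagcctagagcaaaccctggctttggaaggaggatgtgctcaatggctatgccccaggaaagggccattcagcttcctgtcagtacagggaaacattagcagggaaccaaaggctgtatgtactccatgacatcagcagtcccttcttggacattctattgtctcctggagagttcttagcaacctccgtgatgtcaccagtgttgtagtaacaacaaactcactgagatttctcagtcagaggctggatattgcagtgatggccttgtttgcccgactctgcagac
The Ccnb3 window held 2 matches of CAACNG and 4 of TAACNG, and that of Morn5 held 1 of TAACNG. Among 27025 promoter windows of this length, 35.1% held CAACNG, 23.2% TAACNG and 12.7% GTTGCC. Speer4a had 1 match of GTTGCC, and the Gc window had none of these 3. CNCCTCAG, the sequence bound by Stra8, was in none of the 4 windows and in 7.97% of all. A match is a description of letters and not a binding site. Mybl1, the gene of the meiotic MYB protein, had 102 and 101 CPM in the E16.5 pools.

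All 4 marker genes rose against E14.5, the comparison with the clearest change in this cell type. The markers were chosen with earlier results of these data known, and this comparison was added after seeing the data. The p-values below are therefore no independent support for the markers. Ccnb3 (X:6979652-7041619, GRCm38), a cyclin that mouse oocytes need to finish their first division, had 809 and 1062 CPM in the E16.5 pools, against 43.1 to 72.3 CPM in the 4 pools of E14.5. The pools did not overlap, and the log2 fold change was 3.96 ± 0.49 (SE; edgeR's quasi-likelihood test, adjusted p = 4.84e-05). Gc (5:89417522-89457898), which encodes the vitamin D binding protein of blood, had 719 and 808 CPM at E16.5, against 7.62 to 28.9 CPM at E14.5, a log2 fold change of 5.49 ± 0.48 (edgeR, adjusted p = 9.93e-07). Morn5 (2:36049458-36079718), a MORN repeat gene linked to motile cilia and sperm tails, had 273 and 268 CPM, against 0 to 14.04 CPM, and Spo11 (2:172977700-172993576) had 681 and 528 CPM, against 42.8 to 118 CPM. Their log2 fold changes were 5.02 ± 0.75 for Morn5 and 2.85 ± 0.36 for Spo11 (edgeR, adjusted p = 0.000172 and 3.34e-05), and again the E16.5 pools lay above every E14.5 pool.

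Against the neighbouring days the markers did not pass the test. Across E15.5, E16.5 and E17.5, Ccnb3 had pools of 551 and 162, then 809 and 1062, then 865 and 1102 CPM. Gc had 603 and 166, then 719 and 808, then 754 and 694 CPM. Both E15.5 pools of Ccnb3 and Gc lay below both E16.5 pools, while E16.5 and E17.5 overlapped. Morn5 had 168 and 19.9 CPM at E15.5, 273 and 268 at E16.5, 411 and 318 at E17.5 and 567 and 348 at E18.5. Pools of neighbouring stages overlapped for Morn5 between E17.5 and E18.5 and were apart before that. Spo11 had its highest mean of these stages at E16.5, with 659 and 303 CPM at E15.5, 681 and 528 at E16.5, 399.5 and 593 at E17.5 and 178 and 235 at E18.5. Its E16.5 pools overlapped those of E17.5 and lay above those of E18.5, with a log2 fold change of 1.52 ± 0.43 against E18.5 (edgeR, adjusted p = 0.105).

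Single members spread widely around these means. Ccnb3 had a median of 903 CPM per cell (10th to 90th percentile 255 to 1730), Gc 717 CPM (223 to 1297), Spo11 555 CPM (228 to 959) and Morn5 214 CPM (13.98 to 537). Over cells of 1 library, Morn5 and Gc had a Spearman correlation of 0.40 over 74 cells in library 20 and 0.28 over 81 cells in library 22, and Ccnb3 and Gc 0.41 and 0.21. Spo11 had 0.10 and 0.08 with Morn5. Cells of a library share its depth and preparation, so these values are descriptions.

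**Figure D1:**
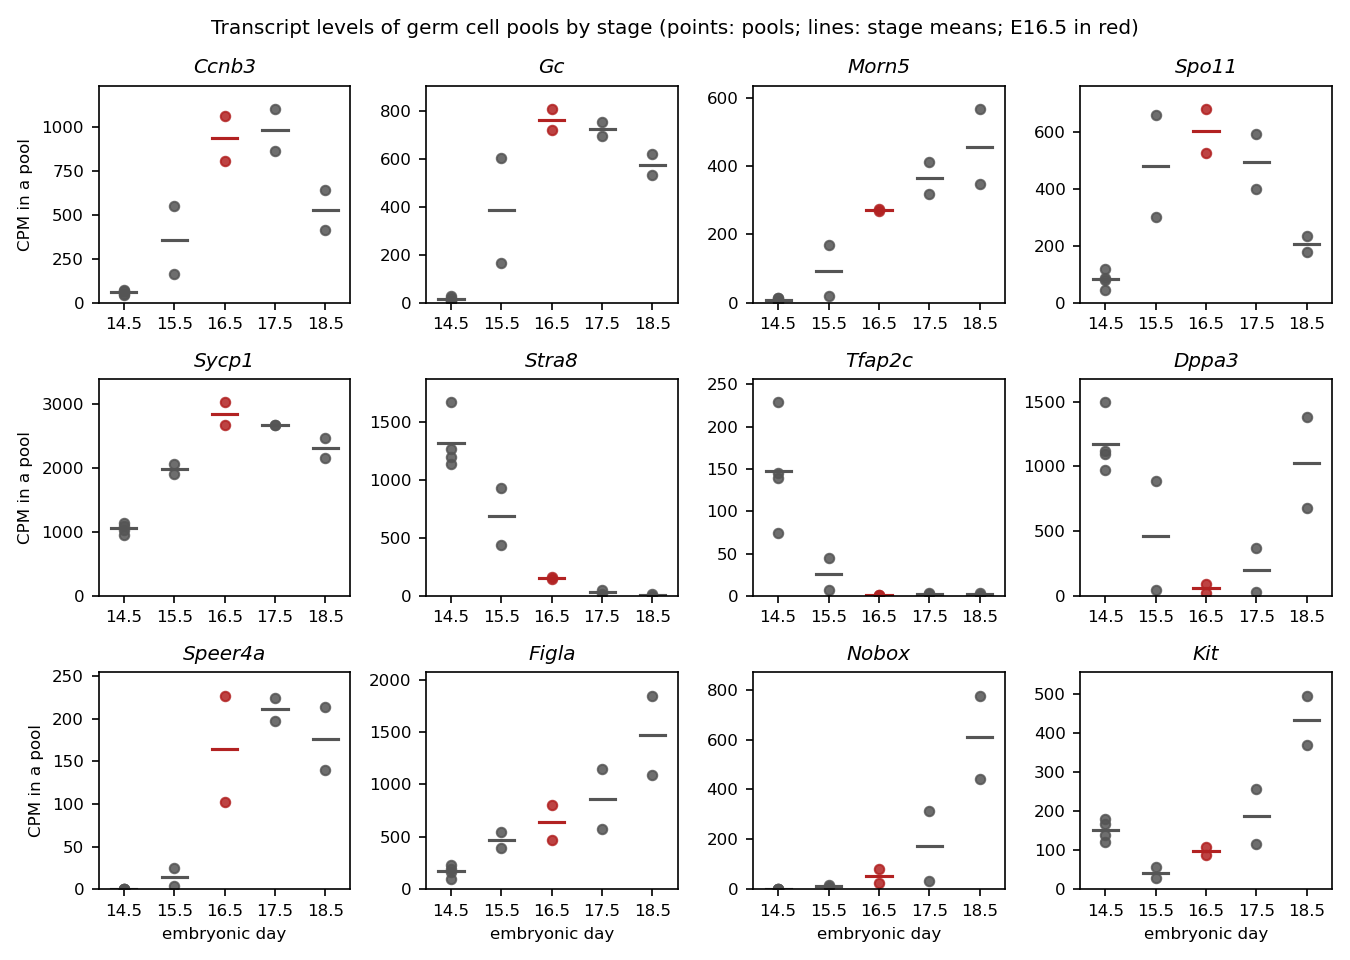
Levels of 12 genes in germ cell pools, in CPM on a linear axis that starts at 0 in each panel, by embryonic day from E14.5 to E18.5; each point is 1 pool, each line the mean of a stage, and E16.5 is in red. The E16.5 pools of Ccnb3, Gc, Morn5 and Spo11 lie above all E14.5 pools, those of Stra8, Tfap2c and Dppa3 lie below them, and those of Nobox and Kit lie below the E18.5 pools.

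Sycp1, the transverse filament of the synaptonemal complex, had 2671 and 3018 CPM in the E16.5 pools. Its mean was the second highest among the genes analysed here, which held a median of 50.9% of a member's deposited counts. Only the ribosomal gene Rps27 had a higher mean, with 3047 and 3469 CPM. Also among the 10 highest means were those of the ribosomal protein genes Rps19, Rps26, Rps20 and Rpl37a, the ribosomal protein gene copies Gm2000 and Gm11808, whose reads may be shared with their parent genes, and Ndufa1, a subunit of respiratory complex I, with 2614 and 2917 CPM. Against E14.5, 1787 of 9997 genes changed (17.9%), 898 higher (8.98%) and 889 lower (8.89%) at E16.5, and the median log2 fold change over all genes was 0.04. Without library 20 the count was 913 and without library 22 it was 748. Of 94 genes called against E14.5 and followed across settings, 23 lost their call without library 20 and 32 without library 22, Stra8 and Sycp3 in both cases and Hormad1, Msh4, Tex11, Figla and Mael without library 22. With libraries merged by R number 17 lost it, among them Stra8, Msh4, Mael and Kitl.

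Of 7 measured genes of the synaptonemal complex and cohesin, 4 rose against E14.5 and none fell, with a median log2 fold change of 1.24. Sycp1 stood at 950 to 1142 CPM in the E14.5 pools, and its log2 fold change was 1.39 ± 0.21 (edgeR, adjusted p = 0.000161). Sycp2, a protein of the chromosome axis, had 911 and 998 CPM at E16.5, against 102 to 343 CPM at E14.5, so that no pools overlapped. Sycp3, another axis protein, had 432 and 428 CPM, against 101 to 259, and Hormad1, which marks unsynapsed axes, 1258 and 1376 CPM, against 619 to 849. The other 3, Syce1, Rad21l and Stag3, had log2 fold changes of 0.25, 1.25 and 0.35 that did not pass. Against E15.5 and against E17.5 no gene of the list was called, with medians of 0.13 and 0.13.

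Recombination genes moved in both directions: of 11 measured, 6 rose and 2 fell against E14.5, with a median of 1.24. Spo11 rose with Hfm1, a helicase of crossover formation that had 663 and 578 CPM at E16.5 and 92.98 to 264 CPM at E14.5. Rnf212, which marks crossover sites in mouse, had 292 and 300 CPM, against 27.3 to 82.5, and Msh4, which stabilises crossover intermediates, 153 and 163 CPM, against 28.9 to 44.9. Tex11 rose to 455 and 451 CPM, against 69.3 to 214, and Mcmdc2 to 143 and 101 CPM, against 30.1 to 72.5; no pools overlapped for these 5 genes. Among those that fell, the nuclease gene Exo1 had 105 and 84.6 CPM, against 171 to 213. Brca2, Mcm8 and M1ap did not pass. None of the 11 was called against E15.5 or E17.5.

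Stra8, which starts meiosis, had 166 and 144 CPM at E16.5, against 1134 to 1669 CPM at E14.5, a log2 fold change of -3.14 ± 0.85 (edgeR, adjusted p = 0.0144). With merged libraries its adjusted p was 0.0592, with a log2 fold change of -3.02, and over all settings it ran from 3.99e-22 to 0.0781. In E15.5 pools it had 442 and 929 CPM and in E17.5 pools 20.3 and 49.8 CPM, so the 3 stages stood in order without overlap. Neither step passed the test, while E17.5 was lower than E15.5 with a log2 fold change of -4.28 ± 0.95 (edgeR, adjusted p = 0.035). A Stra8 UMI was seen in 99.3% of E15.5 cells, 78.7% of E16.5 cells and 40.9% of E17.5 cells, and in 4.35% of E16.5 Negative cells. Thinned to 40000 UMIs per cell, which left 138, 125 and 122 cells, the shares were 93.5%, 60.8% and 22.95%. Of the 5 genes of meiotic initiation and retinoic acid response, Crabp2, a retinoic acid binding protein, also fell, to 1.38 and 17.8 CPM, against 102 to 183 CPM at E14.5.

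Of 13 cyclins, kinases and regulators of meiotic progression, Ccnb3 rose against E14.5 and 4 fell, while 7 had positive log2 fold changes and the median was 0.55. Aurkc, the meiotic Aurora kinase, had 14.1 and 17.1 CPM at E16.5, against 48.1 to 87.9, and the mitotic kinase gene Plk1 68.7 and 40.8 CPM, against 168 to 324. Cdc25b, a phosphatase that activates Cdk1, and Fbxo5, the Emi1 inhibitor of the anaphase complex, were the other 2. Of 11 S phase genes 8 fell and of 15 genes of G2 and mitosis 8 fell, with none higher in either list and medians of -1.71 and -1.17. Mcm2, a helicase subunit, had 58.6 and 46.6 CPM, against 320 to 428 CPM at E14.5, and Ccne1, the cyclin of S phase entry, 30.5 and 36.5 CPM, against 181 to 241. Against E15.5, all 11 S phase genes had negative log2 fold changes, with a median of -0.80, and none passed. Plk1 stands in 2 of these lists and is counted in both.

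**Figure D2:**
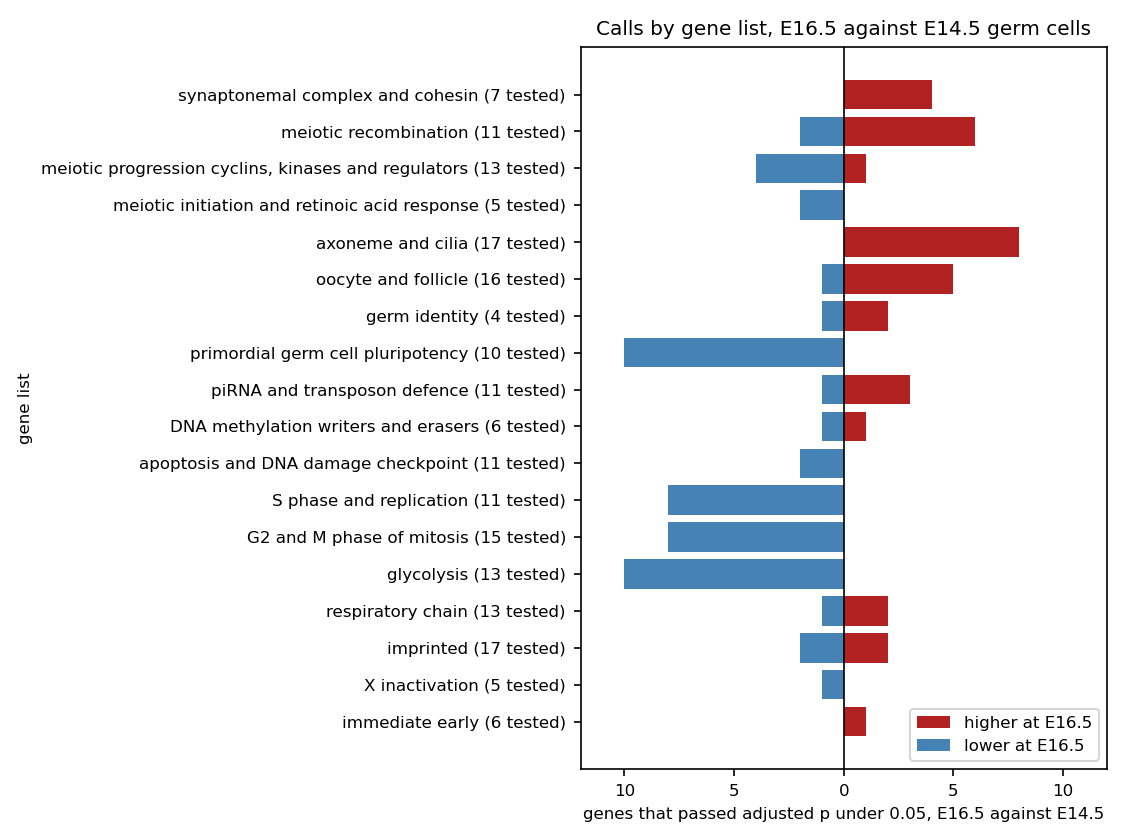
Number of genes of each list that passed an adjusted p of 0.05 at E16.5 against E14.5, higher to the right in red and lower to the left in blue, with the number tested beside each name. All 10 pluripotency genes and 10 of 13 glycolysis genes were lower, and 8 of 17 axoneme genes were higher.

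All 10 measured genes of primordial germ cell pluripotency fell against E14.5, with a median log2 fold change of -5.46. Tfap2c, a transcription factor that founds the germ line, had 0.750 and 0.664 CPM in the E16.5 pools, against 74.7 to 229 CPM at E14.5, and a UMI in 3.87% of members. Nanog had 0.875 and 3.32 CPM, against 45.1 to 137, and Sox2 2.87 and 2.99 CPM, against 108 to 181. Prdm1, whose reporter was used in the sort, had 12.4 and 0.332 CPM at E16.5, against 19.6 to 81.9. Dppa3, the other reporter gene, had 24.9 and 92.2 CPM, against 975 to 1494, with a log2 fold change of -4.35 ± 1.01 (edgeR, adjusted p = 0.0052). At E15.5 its pools had 43.7 and 884.5 CPM and at E17.5 367 and 26.04 CPM, so neighbouring days overlapped with E16.5. The sort used both reporters at every stage.

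Genes of the axoneme, the core of motile cilia, rose against E14.5 in 8 of 17 cases and fell in none, with a median of 3.36. Besides Morn5 these were the dynein chain genes Dnah6, Dnah7a and Dnali1 and the cilium genes Cfap206, Cfap45, Enkur and Spata17. Dnah7a had 32.2 and 28.4 CPM in the E16.5 pools, against 0 to 5.52 CPM at E14.5, and Enkur 35.99 and 33.8 CPM, against 0 to 5.05. The list summed to 554 and 500 CPM at E16.5, against 45.3 to 75.3 at E14.5, and it summed to 373 and 122 CPM at E15.5, 862 and 655 at E17.5 and 824 and 648 at E18.5. The pools of E16.5 thus lay between those of E15.5 and E17.5 without overlap, and no gene of the list was called against either day. Morn5, a marker chosen with earlier results of these data known, made up a large part of the E16.5 sums. Cfap206 had 4.12 and 0.498 CPM at E16.5 and 0 counts in all E14.5 pools, and its call was kept in 8 of 17 settings and lost whenever 1 library was left out.

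Of 16 oocyte and follicle genes, 5 rose against E14.5 and 1 fell, while 10 had positive log2 fold changes and the median was 0.74. Figla, a regulator of the zona pellucida and follicle, had 469 and 806 CPM at E16.5, against 95.5 to 235 CPM at E14.5. Nobox had 24.2 and 81.3 CPM, against 0 to 1.46, Lhx8 71.4 and 143 CPM, against 2.05 to 11.1, and Sohlh1 44.6 and 153 CPM, against 1.32 to 8.19. For these 4 transcription factors the pools did not overlap, and library 22 had more of each than library 20. Nlrp5, a maternal effect gene, had 3.00 and 2.82 CPM, against 0 to 0.537, and Sohlh2 fell to 178 and 147 CPM, against 265 to 397.

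Against E18.5, 76 genes differed (0.76%), 39 higher (0.39%) and 37 lower (0.37%) at E16.5. Kit, the receptor of the pregranulosa ligand, was lower, with 87.6 and 107 CPM at E16.5 and 369 and 496 CPM at E18.5, a log2 fold change of -2.17 ± 0.36 (edgeR, adjusted p = 0.0102). Nlrp5 was lower too, with 3.00 and 2.82 CPM at E16.5 and 288 and 151 CPM at E18.5. M1ap, a gene of crossover formation in mouse, was higher, with 688 and 547 CPM at E16.5 and 111 and 133 CPM at E18.5, a log2 fold change of 2.31 ± 0.31 (edgeR, adjusted p = 0.00254), and so was the imprinted RNA Kcnq1ot1, with 167 and 125 CPM at E16.5 and 11.53 and 51.1 CPM at E18.5. Of the 16 oocyte genes 15 had negative log2 fold changes, with a median of -2.93, and Kit and Nlrp5 were called. The calls over all genes numbered 5 without library 20, 41 without library 22, 30 without library 26 and 392 without library 6. With upper-quartile scaling the split was 56 higher and 27 lower, and the median log2 fold change of all genes was 0.16.

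Of 13 glycolysis genes 10 fell against E14.5 and none rose, with a median of -1.73. They summed to 1374.5 CPM in library 20 and 901 in library 22, against 3536 to 4713 at E14.5 and 9785 in E16.5 Negative cells. Without the Anxa5 limit the calls of Aldoa, Tpi1, Eno1 and Ldhb were lost. Over the settings the log2 fold change ran from -2.64 to -0.528 for Tpi1 and -3.06 to -0.824 for Ldhb. It ran from -2.56 to -1.17 for Aldoa and -1.84 to -1.03 for Eno1. Gapdh had 95.9 and 112 CPM at E16.5, against 508 to 855 CPM at E14.5. Of 13 respiratory chain genes Ndufa1 and Atp5f1 rose and Cox7b fell. Of 11 piRNA genes Mael, Asz1 and Henmt1, which serve the silencing of transposons, rose and Tdrd12 fell. Mael had 1235 and 1568 CPM, against 664 to 839. Of the 4 genes of germ identity Mael and Sycp3, which other lists hold as well, rose and Dppa3 fell. Tet3 rose and Tet1, another enzyme of DNA demethylation, fell among 6 methylation genes. Tet1 had 13.1 and 7.96 CPM, against 280 to 433. Bcl2l11 and Chek2 fell among 11 genes of apoptosis and checkpoint, Sgce and Nnat rose and Phlda2 and Snrpn fell among 17 imprinted genes, and Atrx fell among 5 genes around X inactivation. The called shares of these 3 lists and of the respiratory chain genes lay near the 17.9% of all genes and are no result about the lists. Zfp36 rose among 6 immediate early genes, which summed to 602 and 320 CPM in library 20 and library 22 and to 6546 CPM in Negative cells. Of the somatic lists, Kitl rose among 7 pregranulosa genes tested, and Col3a1 and Nr2f2 rose among 8 stromal ones. Lrrn4 fell among 2 epithelial, Egfl7 among 4 endothelial and Tyrobp among 7 immune genes tested. No call was made among 4 early somatic and 4 erythroid genes tested. With so few calls in each, these and the Zfp36 call are no result about the lists. The calls of Kitl, Col3a1 and Zfp36 were lost when cells at 100 CPM of Kitl or more were left out.

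Against the day before, E16.5 differed in few genes. Of 9997 genes 21 changed (0.21%), 1 higher (0.01%) and 20 lower (0.2%), while 1000 had an unadjusted p under 0.05. In each of the 21 the E16.5 and E15.5 pools did not overlap.

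Speer4a, of a rodent family of glutamate-rich genes expressed in testis, was the gene that rose. It had 103 and 227 CPM in the E16.5 pools, against 25.2 and 4.17 CPM at E15.5, a log2 fold change of 3.53 ± 0.71 (edgeR, adjusted p = 0.0485). The call was kept in 8 of 18 settings, with adjusted p from 1.99e-07 to 0.38, and was lost at Anxa5 limits of 50 and 200 CPM and without a limit. Without library 18 the log2 fold change was 2.72 and without library 22 it was 2.74, neither of them called, and without library 16 it was 5.33. E14.5 pools had 0.0712 to 0.662 CPM, E17.5 pools 198 and 224, and E18.5 pools 213 and 140. All E14.5 pools were thus under 1 CPM, and all pools of E16.5, E17.5 and E18.5 over 100 CPM. A UMI was seen in 80% of members and in 22.5% of E15.5 cells, but also in 47.8% of E16.5 Negative cells. The median was 44.9 CPM in members and 0 CPM in Negative cells. Speer4a belongs to a family of near copies, so its count may be shared with other members.

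The 10 genes with the deepest falls included 3 of the pluripotency list, Tfap2c, Prdm14 and Utf1. Tfap2c had 0.750 and 0.664 CPM in the E16.5 pools, against 6.94 and 44.5 CPM in E15.5 pools, a log2 fold change of -5.13 ± 0.82 (edgeR, adjusted p = 0.015). Utf1, a chromatin factor of pluripotent cells, had 11.4 and 19.2 CPM, against 27.4 and 412. Prdm14, another founder of the germ line, had 0 and 0.166 CPM, against 1.49 and 15.3. This was 1 count over the E16.5 pools and 134 over the E15.5 pools, 90.2-fold lower (95% interval 15.9 to 3588, counting error only). Its fitted log2 fold change of -6.58 was -4.14 without library 18, and the call was kept in 10 of 18 settings. That of Tfap2c was -3.27 without library 18, and its call was kept in 13 of 18. Both calls were lost without library 18, 20 or 22. The log2 fold change of Utf1 ran from -4.74 to -0.848 over the settings, and its call was kept in 10 of 18. For each of these 3 genes library 18 was the higher of the E15.5 pools.

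Trib3, a pseudokinase of the stress response, had 0 counts in the E16.5 pools and 2.01 and 16.54 CPM in the E15.5 pools, which made it at least 33.6-fold lower against a floor of 3 counts over the group. Gm35986, a gene without a known role here, had 2 counts at E16.5 and 306 at E15.5, and Ppp1r14c, an inhibitor of protein phosphatase 1, 2 and 388. Gmfg, a regulator of actin branching, had 3 counts and 226. The E15.5 pools had 2.76 and 36.2 CPM of Gm35986, 16.3 and 22.9 of Ppp1r14c and 7.46 and 16.9 of Gmfg, so library 18 was the higher one each time. Their ratios were 103 (28.3 to 854), 131 (35.9 to 1082) and 50.7 (17.1 to 248), with 95% intervals for counting error. Without library 18 the fitted log2 fold change of Gm35986 was -4.16, beside -6.94 with it. The calls of Gm35986 and Gmfg were lost without library 18, 20 or 22, and that of Ppp1r14c without library 20 or 22. The calls were kept in 12 of 18 settings for Gm35986, in 13 for Ppp1r14c, in 10 for Trib3 and in 7 for Gmfg.
Phlda2, an imprinted gene that limits placental growth in mouse, had 1.37 and 1.82 CPM at E16.5, against 2.68 and 337 CPM at E15.5. Fxyd5, a modulator of the sodium pump, had 4.499 and 12.9 CPM, against 64.96 and 154, and the phosphatase gene Ptpn6 3.50 and 3.82 CPM, against 8.58 and 71.5. Over the settings the log2 fold change ran from -7.72 to -0.769 for Phlda2, -4.68 to -2.90 for Fxyd5 and -4.28 to -1.24 for Ptpn6. Their calls were kept in 11, 13 and 7 of 18 settings.

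The other 10 genes that fell had smaller fold changes, and all but Tuba3a and Fbxo5 are named after their values were seen. Tuba3a had 267 and 197 CPM at E16.5, against 760 and 955 CPM at E15.5, and Tuba3b 98.6 and 59.6 CPM, against 345 and 393. These α-tubulin genes are near copies, and their reads cannot be assigned with certainty. Fbxo5 had 86.99 and 65.9 CPM, against 212 and 253, and was the 1 progression gene called. Pgd, of the pentose phosphate pathway, had 154 and 111 CPM, against 332 and 359, and the deubiquitinase gene Usp5 148.9 and 88.4 CPM, against 286 and 298. Rhox5, an X-linked homeobox gene, had 49.6 and 55.9 CPM, against 110.5 and 607. The remaining 4 were Syne4, Anp32e, Cpxm1 and Nsun5.

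**Figure D3:**
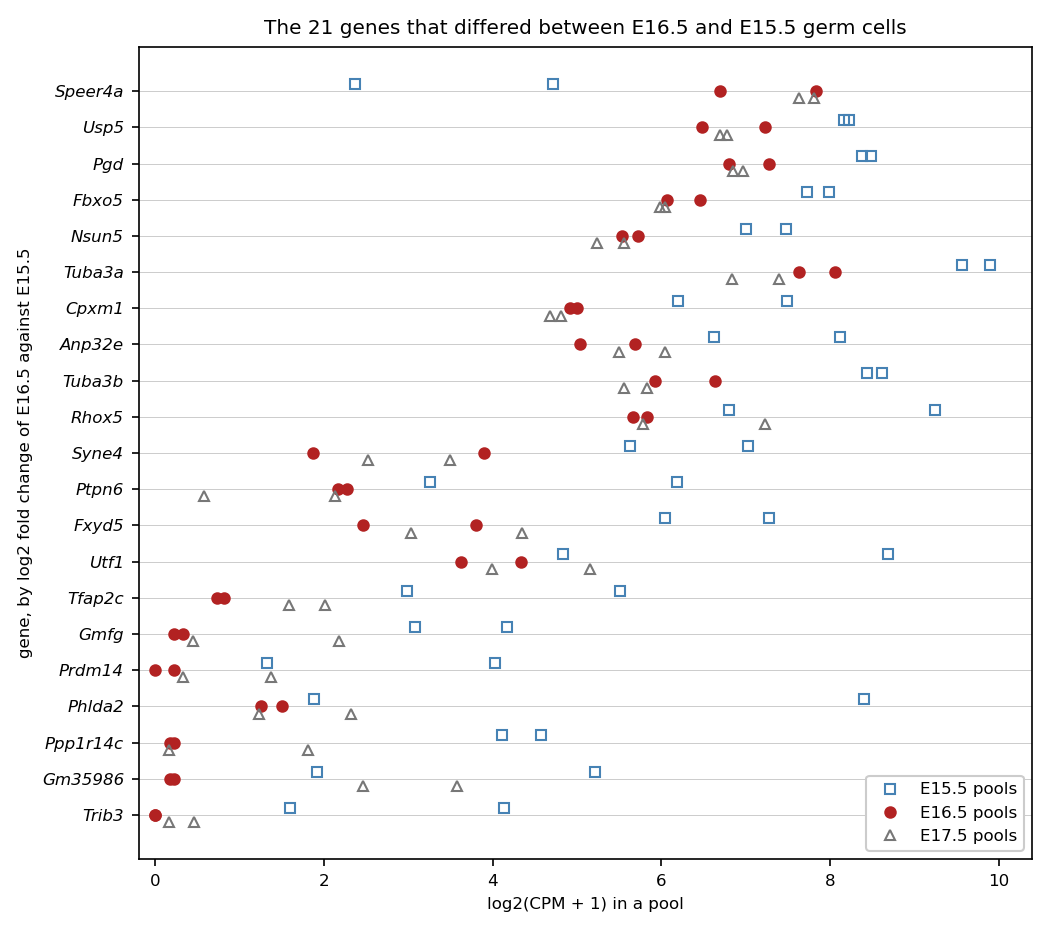
Levels of the 21 genes that differed between E16.5 and E15.5, as log2(CPM + 1) in each pool, with E15.5 as open squares, E16.5 as filled circles and E17.5 as open triangles. Speer4a is the 1 gene higher at E16.5, and its E17.5 pools of 198 and 224 CPM lie in the range of its E16.5 pools.

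The E15.5 pools differed more between themselves than the E16.5 pools did. Log2 levels of the 2 E16.5 pools had a Pearson correlation of 0.947 over 5693 genes, against 0.885 for the 2 E15.5 pools. Library 20 of E16.5 correlated at 0.929 with library 16 and at 0.871 with library 18 of E15.5. Library 18 had the higher E15.5 value in all 20 genes that fell. Pluripotency genes summed to 51.99 and 38.5 CPM in the E16.5 pools, against 60.5 CPM in library 16 and 830 CPM in library 18 of E15.5. The calls numbered 10 without library 18, of which 8 were higher and 2 of the 21 were kept, and 205 without library 16, with all 21 kept. They numbered 7 without library 20 and 0 without library 22. Without the Anxa5 limit 4 genes passed, and DESeq2 called 179, of which 56 were higher and 123 lower. The number of calls thus depended on single libraries, and the part of library 18 in the result was not tested.

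No gene passed against the day after. Against E17.5, 0 of 9997 genes (0%) had an adjusted p under 0.05 by edgeR, 257 had an unadjusted p under 0.05, the lowest adjusted p was 0.567, and DESeq2 called 2. Pools of E17.5 differed too: Nobox had 314 CPM in library 24 and 30.7 in library 25, Sohlh1 576 and 64.4, and Lhx8 436 and 82.5, and the E16.5 pools overlapped with these ranges for all 3. Of 16 oocyte genes 15 had negative log2 fold changes at E16.5 against E17.5, with a median of -1.41. A peak or trough at E16.5 against the mean of E15.5 and E17.5 was found in 0 genes (0%), with 434 at an unadjusted p under 0.05, a lowest adjusted p of 0.101 and 15 called by DESeq2. A value that missed the threshold does not show that the stages were alike.

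Within E16.5 the cells were ordered along their main direction of variation, from cells with much Stra8 and M1ap to cells with more Kit, Lhx8 and Sohlh1. It is the first principal component of 1000 variable genes, centred within each library, and held 7.68% of their variance. The sign of such a component is arbitrary and was set so that M1ap lay at the low end. With this sign M1ap had the strongest negative correlation with the order (r = -0.83), and Spint2 the strongest positive one (r = 0.70). As the order was made from these genes, their values along it are a description. Each library was split by it into 3 equal parts, called its low, middle and high part, of 24, 25 and 25 cells in library 20 and 27 each in library 22.

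Stra8 was found mostly in the low part. Its mean was 445 CPM in the low, 51.5 in the middle and 35.7 in the high part of library 20, and 347, 40.3 and 16.9 CPM in library 22. The M1ap mean was 1275 CPM in the low and 252 in the high part of library 20, and 1243 and 174.8 CPM in library 22. The E15.5 pools of M1ap had 1285 and 1084 CPM. Hormad1 had 1506, 1278 and 1111 CPM in the 3 parts of library 20 and 1849, 1396 and 1004 CPM in library 22. Sycp1 had 3553, 3459 and 2990 CPM in library 20 and 3638, 3886 and 3259 CPM in library 22.

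The other genes of the low end were Tuba3a, Acss2 for acetyl-CoA synthesis, the homeobox gene Six5, the ceramidase gene Acer3, Luzp1, Tmem129, the ubiquitin enzyme gene Ube2t, Mlf1, the centromere gene Cenpw, the haem enzyme gene Hccs and the mitochondrial carrier gene Slc25a25, with r between -0.77 and -0.64. At the high end stood, among others, Id1, a target of BMP signals, the phosphatase subunit gene Ppp2r5a, Map1lc3a of autophagy, the death effector gene Bax, Nup62cl, Speer4a, Maged1, Lage3, the chromatin remodeller gene Chd2 and Pebp1, with r between 0.55 and 0.67. Ppp2r5a had 337 CPM in the high and 37.9 in the low part of library 20, and 1132 and 36.3 CPM in library 22. Speer4a had 179 and 33.9 CPM in library 20 and 430 and 12.52 in library 22. The order and its end genes were picked over cells of both libraries, so the shared direction was built in and is no replication.

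Marker and oocyte genes were spread unequally along the order. Morn5 had 125, 276 and 323 CPM in the low, middle and high part of library 20 and 157, 307 and 325 CPM in library 22. Spo11 had 655, 721 and 524 CPM in library 20 and 648, 486 and 433 CPM in library 22. Kit had 13.9, 79.8 and 129 CPM in library 20 and 8.56, 39.3 and 243 CPM in library 22. Kit was thus at its lowest in the low part and Spo11 in the high part of both libraries. The oocyte regulators Sohlh1 and Lhx8 had their highest mean in the high part, Sohlh1 with 81.04 CPM in library 20 and 394 in library 22, and Lhx8 with 87.7 and 304 CPM. Figla differed from them, with 539, 249 and 525 CPM in library 20 and 577, 463 and 1333 CPM in library 22. Ccnb3 was highest in the high part of library 20, with 657, 822 and 960 CPM, and in the middle part of library 22, with 1089, 1372 and 893 CPM. Dppa3 had 171 CPM in the high part of library 22, against 15.3 CPM in that of library 20.

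**Figure D4:**
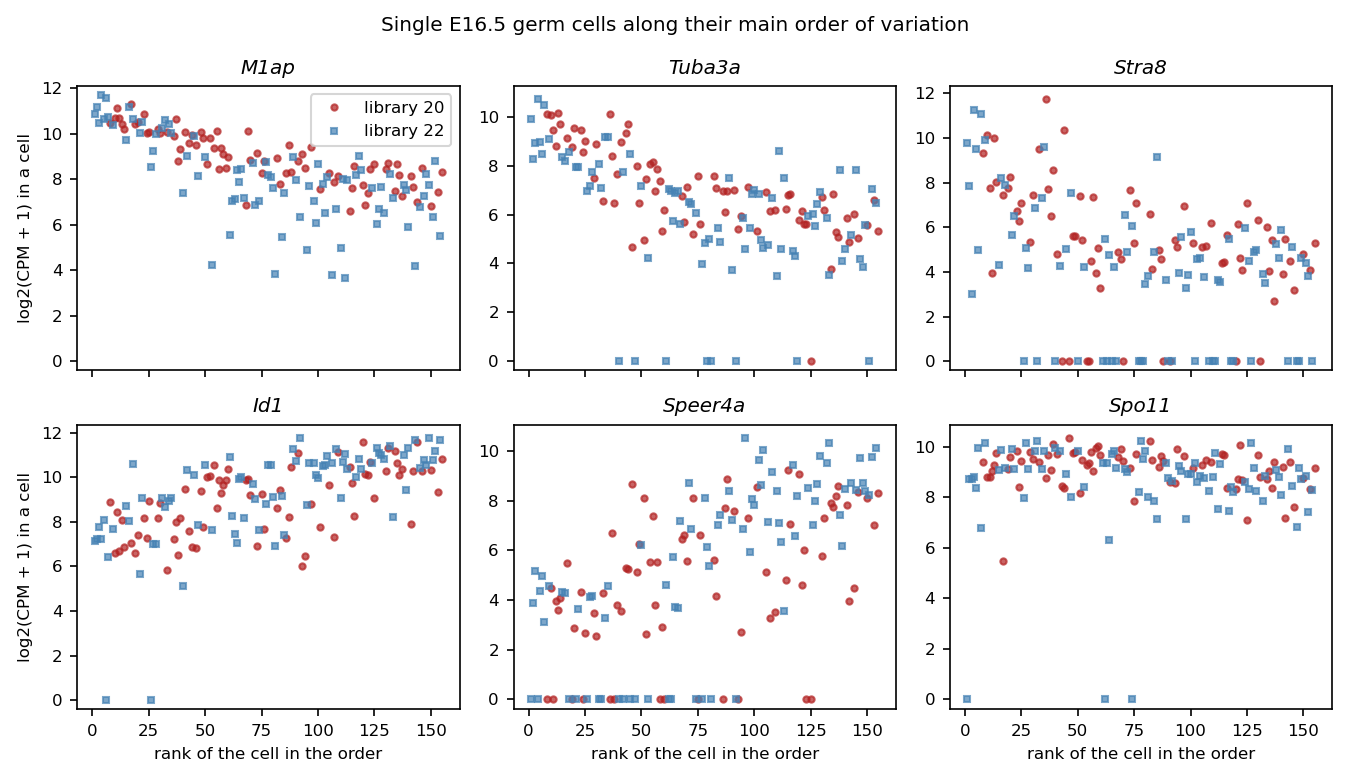
Levels of 6 genes in each of the 155 members, as log2(CPM + 1), against the rank of the cell in the order, with library 20 as circles and library 22 as squares. M1ap, Tuba3a and Stra8 are higher at low ranks, Id1 and Speer4a at high ranks, and Spo11 has a correlation of -0.12 with the order.

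At E17.5 against E15.5, genes of the high end mostly had positive log2 fold changes and genes of the low end negative ones. Most of these changes did not pass the test. The pools compared share no cell with the order. Of 9997 genes 93 differed between E17.5 and E15.5 (0.93%), 33 higher (0.33%) and 60 lower (0.6%) at E17.5. Of the 12 genes at the high end 6 were higher at E17.5, Spint2, Id1, Ppp2r5a, Nup62cl, Speer4a and Chd2, and of the 12 at the low end M1ap, Tuba3a and Slc25a25 were lower. With only the pools of E15.5, E16.5 and E17.5 in the fit, 1 of these 9 calls was kept. The calls of Spint2 and Nup62cl were each kept in 10 of 18 settings, that of Id1 in 12 and that of Tuba3a in all 18. Ppp2r5a had 1001 and 466 CPM at E17.5, against 86.1 and 30.8 CPM at E15.5, a log2 fold change of 3.67 ± 0.60 (edgeR, adjusted p = 0.00904). Of the 100 genes with the highest correlation 97 had positive log2 fold changes, 18 were called higher and 0 lower, with a median of 0.96. Of the 100 with the lowest correlation 98 had negative ones, 12 were called lower and 0 higher, with a median of -0.84. Over all genes 52.6% were positive and the median was 0.06.

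**Figure D5:**
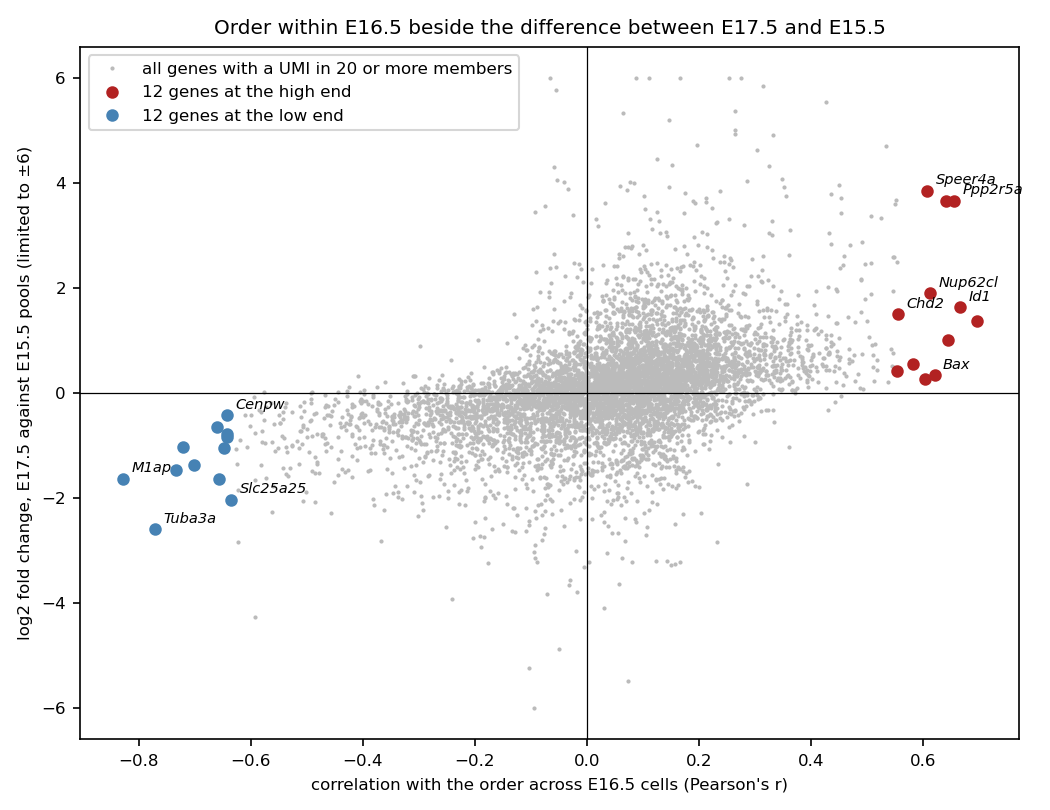
Each point is a gene, placed by its correlation with the order across E16.5 members and by its log2 fold change in E17.5 pools against E15.5 pools, limited to 6 in either direction. The 12 genes at the high end of the order, in red, lie above 0 and the 12 at the low end, in blue, lie below 0.

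The order held under most settings but not in library 20 on its own. Its Spearman correlation with the UMI total of a cell was -0.07 in library 20 and 0.11 in library 22. With the number of detected genes it was 0.08 in library 20 and 0.28 in library 22. After thinning the 125 deep enough members to 40000 UMIs, the new order correlated at 0.996 with the main order and kept 20 of the 24 end genes. Library 22 on its own kept 16. Each alternative order was turned to the direction of the main one, so its correlation with the main order could not be negative. Library 20 on its own kept 0, at a correlation of 0.61 with the main order, and its direction was led by Gstm2, Myl9, Jun, Actb, Tmsb4x, Vim and Kitl, with a correlation of -0.61 with depth. Of its 100 genes at the high end 40 were positive between E17.5 and E15.5 and 0 were called. Without the 11 members of library 20 at 100 CPM of Kitl or more, the other 63, a limit chosen after seeing the data, gave a direction that correlated at 0.991 with the main order and kept 12 of the 24 genes. In those 63 cells, 99 of 100 genes at the high end were positive with 10 called higher at E17.5, and 100 of 100 at the low end were negative with 15 called lower.
Median Anxa5 was 0, 2.77 and 8.57 CPM in the low, middle and high part, median Kitl 9.59, 15.4 and 13.6 CPM and median depth 153117, 145584 and 170369 UMIs. Mean Kitl was 72.9, 114 and 133 CPM in the 3 parts of library 20 and 7.01, 10.03 and 81.1 CPM in those of library 22, highest in the high part of both. The part of Anxa5 in the order was not tested.

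Cell names carried a letter, P, C or D, whose meaning is not given in the sources used here. Members numbered 18 of 32 cells named P, 24 of 32 named C and 32 of 32 named D in library 20, and 25 of 31, 27 of 30 and 29 of 31 in library 22. With pools per library and letter, 0 of 7079 genes (0%) passed between any pair of letters by edgeR, with 224, 177 and 339 at an unadjusted p under 0.05 for P against C, D against C and P against D. Along the order the letters were spread unequally, with D at 22, 28 and 11 cells in the low, middle and high part and C at 16, 12 and 23.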

How the data were processed

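Counts of unique molecules per gene and cell were deposited by the authors as 1 table, and per the submitters' processing notes CASAVA 1.8, UMI-tools, STAR, featureCounts and Subread were used with the mm10 build. No source used here gives the strand setting, annotation or filters. After 1 incomplete row was dropped, 16344 genes on chromosomes 1 to 7, 10, X and the start of 8 were used, and genes elsewhere were not analysed here. These genes held a median of 50.9% of a member's deposited counts, and CPM is relative to their sum. Stage, library, gate, R number and letter were read from the deposited cell names.

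Counts were summed per library into 18 pools of 8 stages, and those of E16.5 held 8001222 UMIs in library 20 and 6028354 in library 22. One model over all pools was fitted with edgeR 4.0.16 in R 4.3.3 (quasi-likelihood test, TMM scaling, filterByExpr, Benjamini-Hochberg adjusted p under 0.05), after it was tested on simulated data. DESeq2 1.42.0, other filters, other Anxa5 limits, thinning and leaving out libraries were alternatives. Intervals and floors cover counting error only. Named genes are the 10 highest and 10 lowest called genes per comparison whose pools do not overlap, the markers, called list members, the 12 genes at each end of the order and the 10 highest means. Positions are from GENCODE (GRCm38), which held 16228 of the genes. The members, lists and tests were chosen with earlier results of these data known. The comparisons with E14.5 and E18.5, the letters, the Kitl limit, the replicate block and another edgeR dispersion were added after seeing the data. Values of some genes that the naming rule covers are not reported here.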

Additional observations from a re-analysis of the deposited data

Results flagged for a closer look

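Of 94 genes tested for a pool far from the others among the 4 pools of E14.5, 7 had one, and chance gives about 1 in 20. In library 5, Msh4 had 28.87 CPM, against 42.1 to 44.9 CPM in the other pools. Tex11 had 69.27 CPM there, against 195 to 214. Tet1 had 433.4 CPM in library 5, against 280 to 293, Ldhb 850.9 CPM, against 493 to 505, and Cox7b 1108 CPM, against 759 to 795. In library 12, Sohlh1 had 8.186 CPM, against 1.32 to 1.92, and Cfap45 had 0.7118 CPM, against 0 to 0.0767.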

How the results depend on the processing

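Of the called genes followed across settings, none turned its direction in a setting that tested it, but counts of calls moved widely. Named genes without a call were not followed. Against E15.5 (21 calls) there were 179 with DESeq2, 274 without the filter on low counts, 0 with only the pools of E15.5, E16.5 and E17.5, 4 without the Anxa5 limit, 6 with libraries merged by R number, 45 with the newer edgeR dispersions (27 higher, 18 lower) and 0 to 205 with 1 library left out. Against E17.5 (0 calls) there were 2 with DESeq2, 19 without the filter and 0 to 2 with 1 library left out. Against the mean of both days (0 calls) there were 15 with DESeq2, 50 without the filter, 1 with an Anxa5 limit of 200 CPM, 1 without a limit and 0 to 31 with 1 library left out. E17.5 against E15.5 (93 calls) gave 420 with DESeq2, 397 without the filter, 12 with only the 3 stages, 168 with thinned cells, 372 with the newer dispersions and 23 to 246 with 1 library left out (246 without library 16, 47 without 18, 23 without 24). E16.5 against E14.5 (1787 calls) gave 1024 with merged libraries and 748 to 1539 with 1 library left out. E16.5 against E18.5 (76 calls) gave 480 with DESeq2, 428 without the filter, 126 without the Anxa5 limit, 44 with merged libraries, 311 with the newer dispersions and 5 to 392 with 1 library left out. The order kept 0 to 16 of its 24 end genes in single libraries, 12 of them in library 20 below 100 CPM of Kitl. The cause of these moves was not tested.

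The cell names carry R1 or R2, but the differences between R1 and R2 pools correlated at -0.02 between E16.5 and E15.5, -0.10 between E16.5 and E17.5 and -0.24 between E17.5 and E15.5, so the numbers were not taken to pair the pools. With the replicate block, added after seeing the data, there were 10 calls against E15.5, 0 against E17.5, 72 for E17.5 against E15.5, 1680 against E14.5 and 52 against E18.5. With 2 pools a stage, changes may have been missed, large ones included.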
